A study of Mus musculus with 4 samples.

Results

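Genes that mark lipid-associated and monocyte-derived macrophages were examined in liver RNA of HFD-WT and HFD-KO male mice. The 10 genes Trem2, Gpnmb, Cd9, Itgax, Lgals3, Ccr2, Lyz2, Cx3cr1, Mmp12 and Cd68 were taken by their symbol from a count table of 25655 genes, and all 10 passed the filter on low counts that left 12967 genes for testing. HFD-WT livers came from ADAR2+/+ mice and HFD-KO livers from ADAR2-/- mice, bred by crossing heterozygous mice on a B6129S background. The controls share the GluR-B R/R allele with the knockouts, an edited form of a glutamate receptor gene without which the knockout dies early. All mice started a high-fat diet (HFD) at 5 weeks of age and stayed on it for 12 weeks, and 2 libraries per genotype were sequenced. The knockout is a germline one and is not limited to a cell type. The study counts more mice per group than libraries for its liver transcriptome comparison and does not say how the mice were assigned to libraries, so a library may be a pool and the spread between libraries may be partly technical, and no chow-fed library was analysed here.

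The total count was between 24480798 and 28691330 per library, and 3 counts correspond to between 0.104 and 0.126 CPM (counts scaled to library size), which covers counting error only. Levels are CPM adjusted by the trimmed mean of M values (TMM) unless stated otherwise. Adarb1, the gene for ADAR2, had 15.7 and 19.8 CPM in HFD-WT and 6.23 and 9.55 CPM in HFD-KO livers (log2 fold change -1.17, SE 0.20), with an edgeR adjusted p = 0.159. The adjusted p of Adarb1 was under 0.05 in other fits, at 0.000416 by DESeq2's Wald test, 0.00251 with no filter on low counts and 0.040 with the replicate number as a block (both by edgeR). Reads on Adarb1 were thus present in both libraries labelled HFD-KO at a lower level. The label of liver was checked on 9 hepatocyte genes such as Alb, whose summed level was between 87421 and 101450 CPM in each library.

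Resident macrophages of the liver are the Kupffer cells. In fatty liver, blood monocytes enter through the chemokine receptor CCR2 and mature into macrophages, some of which take up lipid and cell debris and switch on a programme built around the surface receptor TREM2. These lipid-associated macrophages carry GPNMB, CD9 and the integrin CD11c, and they gather in crown-like rings around lipid-laden hepatocytes. In whole-liver RNA such cells are a small fraction, and fewer cells of a type cannot be told apart from less RNA per cell.

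Per unit of transcript length, Lyz2 was by far the highest of the 10 genes. Its deposited TPM, a share of transcripts corrected for gene length, averaged 94.8 over the 4 libraries. Cd9 followed with 28.6 TPM, Cd68 with 22.5 TPM and Lgals3 with 15.7 TPM. The other six averaged 6.94 TPM for Trem2, 5.17 for Mmp12, 4.14 for Gpnmb, 2.38 for Itgax, 1.604 for Cx3cr1 and 0.904 for Ccr2. Only 2 steps of this order were larger than the spread over libraries, namely Lyz2 above Cd9 and Lgals3 above Trem2, and at every other step the ranges of the neighbours overlapped. Lyz2 alone held between 47.8% and 57.5% of the summed TPM of the 10 genes. The sum was 186 and 236 TPM in HFD-WT and 175 and 134 TPM in HFD-KO livers, so both HFD-KO sums lay below both HFD-WT sums.

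The promoters of these genes were read from RefSeq, from 250 bases before to 50 bases after each annotated start site, on GRCm38.p6, which is an older build than the positions in the count table. All 10 genes were matched, with 11 windows because Mmp12 has a pair of them. Motifs of factors active in macrophages were searched on both strands. The AP-1 site TGACTCA occurred in the windows of 4 of the 10 genes and in 5.2% of all 32851 promoter windows of that length. The PU.1 core GAGGAA occurred in 3 of the 10 (Trem2, Mmp12 and Cd68) and in 28.3% of all windows. The E-box CACGTG, bound by factors of lysosomal genes, occurred in 0 of the 10 and in 7.15% of all windows. The motifs do not overlap each other in letters. The windows of the 4 genes with an AP-1 site are shown because this motif was the most frequent among the 10 genes relative to all promoters, with the site in capitals (its reverse complement where it lies on the other strand). A match is a description of letters, and binding was not measured.
Gpnmb, chr6:49036268-49036567, plus strand: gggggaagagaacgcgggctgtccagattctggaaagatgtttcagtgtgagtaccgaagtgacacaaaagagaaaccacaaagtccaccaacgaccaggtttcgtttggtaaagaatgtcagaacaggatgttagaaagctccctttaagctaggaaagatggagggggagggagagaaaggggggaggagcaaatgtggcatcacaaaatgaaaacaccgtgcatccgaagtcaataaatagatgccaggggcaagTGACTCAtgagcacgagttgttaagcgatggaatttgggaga
Itgax, chr7:128129300-128129599, plus strand: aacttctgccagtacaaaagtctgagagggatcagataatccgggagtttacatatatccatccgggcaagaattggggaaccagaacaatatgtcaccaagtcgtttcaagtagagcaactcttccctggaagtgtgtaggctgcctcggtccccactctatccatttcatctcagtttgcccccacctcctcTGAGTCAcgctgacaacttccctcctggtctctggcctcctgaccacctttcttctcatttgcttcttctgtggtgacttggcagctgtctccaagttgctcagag
Mmp12, chr9:7347124-7347423, plus strand: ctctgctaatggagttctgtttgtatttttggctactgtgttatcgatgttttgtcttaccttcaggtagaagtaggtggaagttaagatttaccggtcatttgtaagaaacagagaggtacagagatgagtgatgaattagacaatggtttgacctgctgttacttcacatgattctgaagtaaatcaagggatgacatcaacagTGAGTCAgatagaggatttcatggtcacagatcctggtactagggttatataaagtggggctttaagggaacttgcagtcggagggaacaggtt
Cd68, chr11:69666121-69666420, minus strand: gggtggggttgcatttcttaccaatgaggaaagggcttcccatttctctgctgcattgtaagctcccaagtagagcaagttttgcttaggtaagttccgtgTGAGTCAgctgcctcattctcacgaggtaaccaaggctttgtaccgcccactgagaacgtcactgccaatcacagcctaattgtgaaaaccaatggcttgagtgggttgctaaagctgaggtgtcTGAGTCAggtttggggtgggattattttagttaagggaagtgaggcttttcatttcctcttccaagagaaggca
The site began 9 bases into the Gpnmb transcript, 56 bases before the start site of Itgax, 44 bases before that of Mmp12, and 149 and 24 bases before that of Cd68.

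All 10 genes had a lower mean in HFD-KO than in HFD-WT livers, with log2 fold changes from -0.94 for Gpnmb to -0.25 for Cd9 and a median of -0.57, against a median of 0.0068 over all genes tested. A negative log2 fold change was seen for 48.4% of all genes tested. No gene of the 10 passed an adjusted p of 0.05 by edgeR or by DESeq2's Wald test, while 0.0771% of all genes did so by edgeR in either direction and 0.463% were lower by the Wald test. At an unadjusted p under 0.05 by edgeR, 4 of the 10 were lower (Lgals3, Itgax, Gpnmb and Mmp12) and 0 were higher, where the background was 4.73% of genes lower and 4.25% higher. DESeq2's Wald test also gave 4 lower genes at an unadjusted p under 0.05, and the share of all genes at that p was not counted. Without replicate 2 of HFD-WT, the highest library for 9 of the 10, only Lgals3 stayed at an unadjusted p under 0.05, where 1.56% of all genes were lower. Both HFD-KO libraries lay below both HFD-WT libraries for 4 of the 10 (Trem2, Gpnmb, Itgax and Lgals3), against 20.3% of all genes tested.

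**Figure D1:**
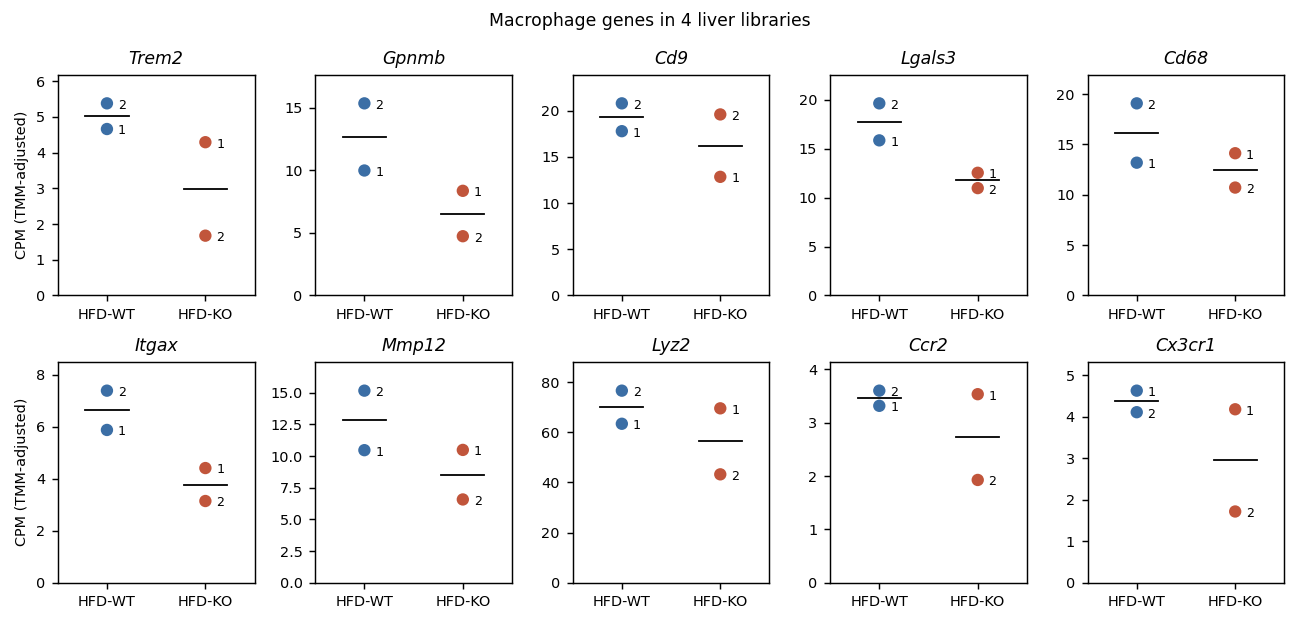
Level of each of the 10 macrophage genes in CPM (TMM-adjusted, linear axis from 0) in 2 HFD-WT (blue) and 2 HFD-KO (red) liver libraries; each point is a library with its replicate number beside it and the black line is the group mean. Replicate 2 of HFD-KO is the lowest library for 9 of the 10 genes, the exception being Cd9.

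The lipid-associated macrophage genes came first. Trem2 encodes the lipid-sensing receptor around which the programme is built (ENSMUSG00000023992, chromosome 17 from 48653429 to 48661175 on GRCm39). It was counted 135 and 148 times in the HFD-WT libraries and 113 and 40 times in the HFD-KO libraries. In CPM these were 4.66 and 5.38 against 4.29 and 1.67. The HFD-KO values lay below the HFD-WT values, but replicate 1 of HFD-KO was close to the nearer of them and replicate 2 was at 33.4% of the HFD-WT mean. Its log2 fold change was -0.74 (SE 0.38, edgeR adjusted p = 0.630), and it ranged from -1.58 without replicate 1 of HFD-KO to -0.23 without replicate 2.

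Gpnmb encodes a transmembrane glycoprotein of lysosome-rich phagocytes (ENSMUSG00000029816, chromosome 6 from 49013480 to 49047863). It had 9.98 and 15.3 CPM in HFD-WT and 8.36 and 4.73 CPM in HFD-KO livers. This was the largest difference among the 10 genes, with a log2 fold change of -0.94 (SE 0.29, edgeR adjusted p = 0.407). Both HFD-KO libraries were below both HFD-WT libraries, at 66.0% and 37.4% of the HFD-WT mean. It was -1.42 without replicate 1 of HFD-KO and about -0.60 without either replicate 2.

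Cd9 encodes a tetraspanin of the cell surface that many cell types besides macrophages carry (ENSMUSG00000030342, chromosome 6 from 125437229 to 125471754). It had 17.8 and 20.8 CPM in HFD-WT and 12.8 and 19.6 CPM in HFD-KO livers. It was the exception among the 10 genes, because replicate 1 of HFD-KO was its lowest library and replicate 2 lay within the HFD-WT range. The log2 fold change of -0.25 (SE 0.19, edgeR adjusted p = 0.731) became 0.024 without replicate 1 of HFD-KO.

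Lgals3 encodes galectin-3, a secreted lectin of phagocytes (ENSMUSG00000050335, chromosome 14 from 47605208 to 47623617). Its level was 15.9 and 19.6 CPM in HFD-WT and 12.5 and 10.97 CPM in HFD-KO livers, so both HFD-KO libraries were low and close to each other. With a log2 fold change of -0.59 (SE 0.13), its p was the smallest of the 10 genes (unadjusted p = 0.00275, edgeR adjusted p = 0.260). It was the only one of the 10 whose adjusted p fell under 0.05 when the filter on low counts was removed (edgeR adjusted p = 0.0345, with 0.468% of all genes lower in that fit). Its log2 fold change stayed between -0.75 and -0.43 whichever library was omitted.

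Itgax encodes the integrin CD11c, which dendritic cells also carry (ENSMUSG00000030789, chromosome 7 from 127728719 to 127749829). It had 5.87 and 7.38 CPM in HFD-WT and 4.41 and 3.14 CPM in HFD-KO livers, with both HFD-KO libraries below both HFD-WT libraries. Its log2 fold change was -0.81 (SE 0.22, edgeR adjusted p = 0.360), between -1.07 and -0.59 over the libraries left out. Mmp12 encodes macrophage metalloelastase, an elastin-cleaving protease (ENSMUSG00000049723, chromosome 9 from 7344381 to 7369499). It had 10.463 and 15.2 CPM in HFD-WT and 10.484 and 6.57 CPM in HFD-KO livers. Replicate 1 of HFD-KO thus matched replicate 1 of HFD-WT, and the groups overlapped by this small margin. For Mmp12 the log2 fold change was -0.58 (SE 0.25, edgeR adjusted p = 0.551), and about -0.29 without replicate 2 of either group.

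Cd68 and Lyz2 mark phagocytes more broadly. Cd68 encodes a lysosomal membrane protein used as a general macrophage stain (ENSMUSG00000018774, chromosome 11 from 69555039 to 69556979). It had 13.2 and 19.1 CPM in HFD-WT and 14.1 and 10.7 CPM in HFD-KO livers, so the groups overlapped. Its log2 fold change was -0.37 (SE 0.20, edgeR adjusted p = 0.639), and -0.083 without replicate 2 of HFD-WT. Lyz2 encodes lysozyme M of monocytes, macrophages and neutrophils (ENSMUSG00000069516, chromosome 10 from 117113236 to 117118226, the chromosome that also holds Adarb1). It was counted 1835 and 2106 times in HFD-WT and 1830 and 1032 times in HFD-KO libraries, or 63.4 and 76.6 CPM against 69.5 and 43.2 CPM. Replicate 1 of HFD-KO lay between the HFD-WT libraries and replicate 2 below both. For Lyz2 the log2 fold change of -0.31 (SE 0.21, edgeR adjusted p = 0.702) was -0.0096 without replicate 2 of HFD-KO. Its neighbour and near copy Lyz1 had between 2 and 11 reads per library, and how reads shared by the pair were assigned is not given in the sources used here.

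The chemokine receptors of monocytes were the lowest of the 10 genes in level. Ccr2, the receptor through which inflammatory monocytes leave the marrow and enter tissue (ENSMUSG00000049103, chromosome 9 from 123901987 to 123913594), was counted 96 and 99 times in HFD-WT and 93 and 46 times in HFD-KO libraries. In CPM these were 3.31 and 3.60 against 3.53 and 1.93, so replicate 1 of HFD-KO was within the HFD-WT range. For Ccr2 the log2 fold change of -0.33 (SE 0.30, edgeR adjusted p = 0.787) became 0.031 without replicate 2 of HFD-KO. Cx3cr1, the fractalkine receptor of patrolling monocytes and of many tissue macrophages (ENSMUSG00000052336, chromosome 9 from 119730682 to 119898945), had 4.63 and 4.11 CPM in HFD-WT and 4.18 and 1.72 CPM in HFD-KO livers. The pattern was that of Ccr2, and the log2 fold change of -0.56 (SE 0.37, edgeR adjusted p = 0.698) was -0.065 without replicate 2 of HFD-KO. The annotated span of Cx3cr1 overlaps 5 other genes, among them Gorasp1 and Csrnp1 on the same strand, so reads in shared stretches could have been counted to either.

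The 10 genes showed different patterns across the HFD-KO libraries. For Gpnmb, Itgax and Lgals3, both HFD-KO libraries were at 70.7% of the HFD-WT mean or less. For Ccr2, Lyz2 and Cx3cr1, replicate 1 of HFD-KO was between 95.7% and 102% of the HFD-WT mean and replicate 2 between 39.3% and 61.8%. Trem2, Mmp12 and Cd68 lay between these patterns, with replicate 1 at 85.5%, 81.8% and 87.6% and replicate 2 at 33.4%, 51.3% and 66.4%. Replicate 2 was the lowest of the 4 libraries for 9 of the 10 genes and for 29.2% of all genes tested. Without replicate 2 of HFD-KO, 1 of the 10 (Cd9) had an adjusted p under 0.05 by edgeR, and without replicate 1 of HFD-KO 8 of the 10 did, all but Cd9 and Ccr2. The share of all genes that were lower at an adjusted p under 0.05 was 1.39% and 2.48% in these fits, well above that of the fit on all libraries. In such a fit the lone HFD-KO library is assumed to vary as the HFD-WT libraries do.

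**Figure D2:**
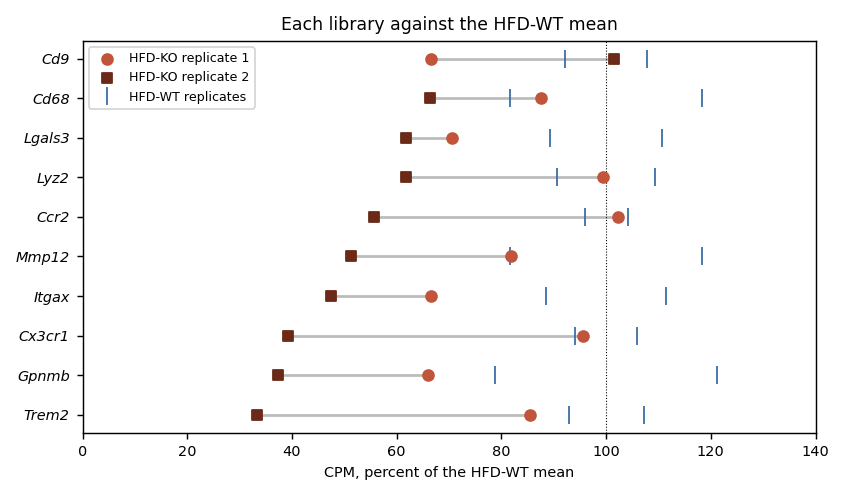
CPM of each gene in HFD-KO replicate 1 (circle), HFD-KO replicate 2 (square) and the HFD-WT libraries (blue ticks), as a percent of the HFD-WT mean (dotted line at 100), with a grey line joining the HFD-KO libraries. Trem2 and Cx3cr1 show the widest gaps between the HFD-KO libraries, and Lgals3 the narrowest.

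The wider pathway was described with lists compiled by hand. Of 7 tested genes of TREM2 signalling, 2 were lower at an unadjusted p under 0.05 and 0 were higher, and the median log2 fold change was -0.10. Tyrobp, the adaptor that carries the TREM2 signal, had 14.9 and 17.96 CPM in HFD-WT and 13.03 and 10.97 CPM in HFD-KO livers (log2 fold change -0.45, SE 0.13, edgeR adjusted p = 0.398). Inpp5d, the inositol phosphatase SHIP that dampens such signals, had 7.87 and 9.38 CPM against 6.19 and 5.19 CPM (log2 fold change -0.60, SE 0.16, edgeR adjusted p = 0.360). Both HFD-KO libraries were below both HFD-WT libraries for Tyrobp and Inpp5d, while the groups overlapped for the kinase Syk (8.53 and 10.6 against 8.55 and 6.78 CPM). The ratio of Trem2 to Tyrobp in TPM was 0.182 and 0.175 in HFD-WT and 0.192 and 0.0891 in HFD-KO livers, and the lowest ratio was again that of replicate 2.

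Of 20 further genes of the lipid-associated programme, 9 were lower and 1 was higher at an unadjusted p under 0.05, 0 passed an adjusted p of 0.05 by edgeR, and both HFD-KO libraries lay below both HFD-WT libraries for 13. The median log2 fold change was -0.24. Many of these genes are also active in hepatocytes or bile duct cells. Cd63, a tetraspanin of lysosomes and exosomes, had 24.2 and 24.8 CPM in HFD-WT and 11.9 and 15.9 CPM in HFD-KO livers (log2 fold change -0.82, SE 0.14, edgeR adjusted p = 0.135). Anxa5, the phosphatidylserine-binding annexin, had 234 and 256 CPM against 172 and 157 CPM (log2 fold change -0.57, SE 0.09, edgeR adjusted p = 0.115). Spp1, the gene for osteopontin, had 64.3 and 83.9 CPM against 53.8 and 42.8 CPM (log2 fold change -0.62, SE 0.15, edgeR adjusted p = 0.314). For these genes neither HFD-KO library reached the HFD-WT range. By DESeq2's Wald test the adjusted p was 0.00239 for Cd63, 0.000198 for Anxa5 and 0.0317 for Spp1, and with no filter on low counts it was 0.00356, 0.00916 and 0.0336 by edgeR. Fabp5, a fatty acid-binding protein, was the only gene of this list higher at an unadjusted p under 0.05, with 4.07 and 6.03 CPM against 5.47 and 15.99 CPM, and it was high in replicate 2 of HFD-KO only.

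Signals that recruit or sustain monocytes came next. Of 11 tested genes, 2 were lower at an unadjusted p under 0.05 (Il34 among them) and 1 was higher (Csf1), with a median log2 fold change of -0.26. Ccl2, the ligand of CCR2, had 2.11 and 2.44 CPM in HFD-WT and 2.24 and 2.18 CPM in HFD-KO livers, and its log2 fold change was -0.038 (SE 0.24, edgeR adjusted p = 0.977). The HFD-KO values of Ccl2 lay within the HFD-WT range. Csf1 and Il34 encode the alternative ligands of the receptor CSF1R. Csf1 had 12.1 and 11.4 CPM against 15.2 and 13.7 CPM, and Il34 had 2.31 and 3.71 CPM against 1.56 and 1.93 CPM. Both HFD-KO libraries were higher for Csf1 and lower for Il34 (adjusted p = 0.477 and 0.510 by edgeR).

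Of 14 tested blood monocyte genes, 1 was lower and 0 were higher at an unadjusted p under 0.05, and the median log2 fold change was -0.17. The lower gene was Ms4a6c, with 4.42 and 5.89 CPM in HFD-WT and 3.65 and 2.89 CPM in HFD-KO livers (log2 fold change -0.65, SE 0.23, edgeR adjusted p = 0.466). Ly6c2, the surface marker of inflammatory monocytes, had 0.829 and 0.618 CPM against 1.06 and 0.921 CPM, and was thus numerically higher in HFD-KO livers (log2 fold change 0.45, SE 0.37, edgeR adjusted p = 0.760). Fcgr4, an Fc receptor of patrolling monocytes and macrophages, had 5.87 and 7.53 CPM against 5.66 and 4.52 CPM (edgeR adjusted p = 0.622).

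Resident Kupffer cell genes were compared to see whether the pattern of the 10 genes was shared. Of 10 tested Kupffer cell genes, 4 were lower and 0 were higher at an unadjusted p under 0.05, and both HFD-KO libraries lay below both HFD-WT libraries for 7, with a median log2 fold change of -0.39. Clec4f, the C-type lectin that marks Kupffer cells, had 52.5 and 64.3 CPM in HFD-WT and 43.8 and 43.1 CPM in HFD-KO livers. Vsig4, a complement receptor, had 19.4 and 21.2 CPM against 12.9 and 13.3 CPM (log2 fold change -0.63, SE 0.10, edgeR adjusted p = 0.112). Cd5l, a secreted macrophage protein, had 88.1 and 117 CPM against 65.5 and 67.7 CPM. By DESeq2's Wald test the adjusted p was 0.023 for Vsig4 and 0.00824 for Cd5l, and with no filter 0.00772 and 0.0215 by edgeR. The HFD-KO libraries were alike for these 3 genes. These genes had the smallest p of their list, which favours genes whose libraries agree within a group. Of the 10 macrophage genes, Lgals3 had the smallest p and also had HFD-KO libraries close to each other. Those of Trem2, Ccr2 and Cx3cr1 were further apart. Replicate 2 of HFD-KO was the lowest library for 2 of the 10 Kupffer cell genes and replicate 1 for 7. Other macrophage lists were like the 10 macrophage genes in this. Replicate 2 was the lowest for 10 of 12 genes shared by tissue macrophages and for 14 of 20 further genes of the lipid-associated programme. The difference between these lists was not tested.

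Of 12 tested genes shared by tissue macrophages, 7 were lower and 1 was higher at an unadjusted p under 0.05, with a median log2 fold change of -0.39. Both HFD-KO libraries lay below both HFD-WT libraries for 9 of the 12 and above both for 1, where 20.3% of all genes tested were below. Adgre1, which encodes the F4/80 antigen, had 13.4 and 19.7 CPM in HFD-WT and 11.1 and 9.84 CPM in HFD-KO livers (log2 fold change -0.66, SE 0.18, edgeR adjusted p = 0.366). Mpeg1, the perforin of phagocytes, had 119 and 139 CPM against 93.4 and 82.8 CPM (edgeR adjusted p = 0.212), and the complement gene C1qc had 38.7 and 49.2 CPM against 29.9 and 31.2 CPM (edgeR adjusted p = 0.262). For each of them both HFD-KO libraries were lower than both HFD-WT libraries. The adjusted p of Mpeg1 was 0.00597 by DESeq2's Wald test and 0.0216 with no filter by edgeR, and that of C1qc was 0.0724 and 0.0409.

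**Figure D3:**
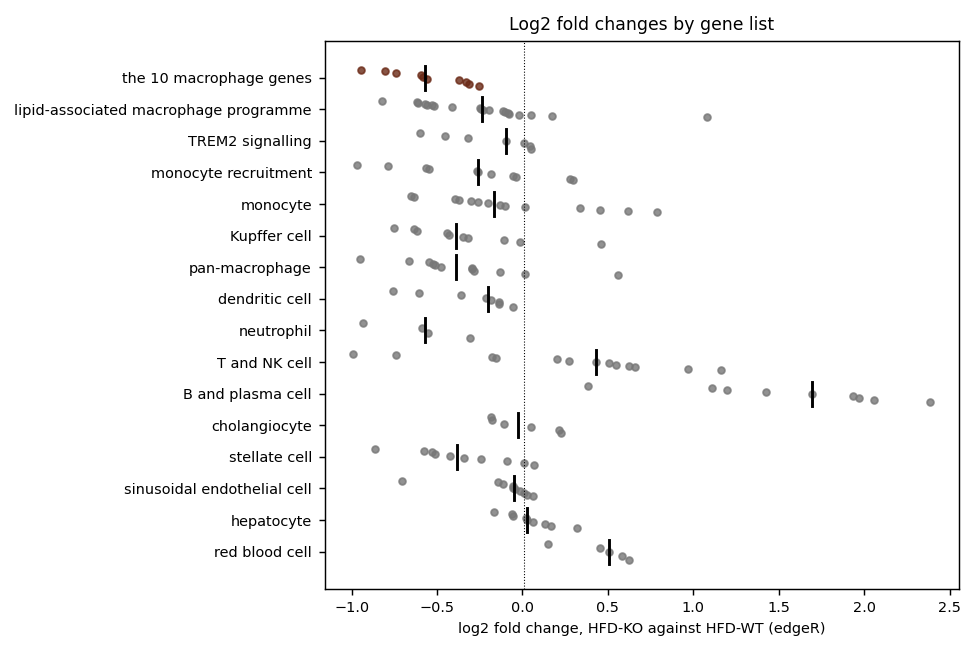
Log2 fold change between HFD-KO and HFD-WT for every tested gene (points) of the 10 macrophage genes and of 15 further gene lists, with the median of each list as a black bar and the median of all genes tested as a dotted line. The 10 macrophage genes all lie left of 0, with a median of -0.57, and the B and plasma cell genes lie furthest right, with a median of 1.69.

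Levels within a library were also set against Csf1r, the growth factor receptor of all macrophages, in TPM. Csf1r was not a stable reference, with 44.5 and 61.5 CPM in HFD-WT and 39.4 and 34.8 CPM in HFD-KO livers. Its log2 fold change was -0.51 (SE 0.15, edgeR adjusted p = 0.400), so a ratio without a difference can go with a lower level. The ratio of Gpnmb to Csf1r was 0.242 and 0.270 in HFD-WT and 0.229 and 0.147 in HFD-KO livers, and that of Itgax was 0.152 and 0.138 against 0.129 and 0.104. These were the genes whose ratio was lower in both HFD-KO libraries, together with Lgals3 by a small margin (0.955 and 0.856 against 0.853 and 0.847). The ratio of Trem2 was 0.457 and 0.382 in HFD-WT and 0.475 and 0.210 in HFD-KO livers, with replicate 2 alone being low. The ratio of Cd68 was 1.17 and 1.23 against 1.42 and 1.22, and that of Lyz2 was 5.39 and 4.72 against 6.68 and 4.71. Cd68 and Lyz2 thus did not differ in one direction once expressed per Csf1r. Without Lyz2, the summed TPM of the others over that of the pan-macrophage genes was 0.207 and 0.219 in HFD-WT and 0.182 and 0.196 in HFD-KO livers, lower in both HFD-KO libraries. The summed TPM of all 10 genes over that of the pan-macrophage genes was 0.428 and 0.439 in HFD-WT and 0.428 and 0.374 in HFD-KO livers. Over the Kupffer cell genes, the ratio of all 10 was 0.573 and 0.654 in HFD-WT and 0.694 and 0.506 in HFD-KO livers, so that the HFD-KO libraries held both the highest and the lowest value. An exact permutation test (two-sided) of 2 libraries against 2 cannot give a p below 0.333, so these ratios are descriptions.

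**Figure D4:**
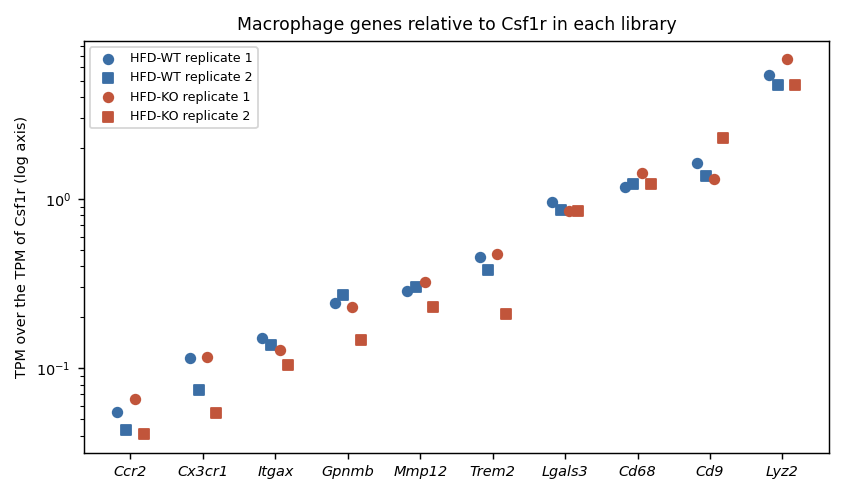
Ratio of the TPM of each of the 10 macrophage genes to the TPM of Csf1r (log axis), with 1 point per library (blue HFD-WT, red HFD-KO; circle replicate 1, square replicate 2). For Trem2, replicate 2 of HFD-KO at 0.210 stands below the other libraries at 0.382 to 0.475.

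Markers of other cells also differed between the libraries, and their part in the result was not tested. Stellate cell genes had 4 of 10 lower at an unadjusted p under 0.05 and a median log2 fold change of -0.38, and their sum was 490 and 541 CPM in HFD-WT and 443 and 336 CPM in HFD-KO livers. Replicate 2 of HFD-KO was the lowest library for 9 of these 10 genes, among them Dcn (179 and 202 against 165 and 119 CPM), Col1a1 (30.3 and 34.2 against 21.0 and 14.4 CPM), Col3a1 (54.0 and 61.9 against 45.3 and 32.5 CPM) and Reln (54.3 and 60.0 against 42.7 and 36.4 CPM). By DESeq2's Wald test the adjusted p was 0.00239 for Col1a1 and 0.0231 for Reln. Of 13 tested T and natural killer cell genes, 0 passed an unadjusted p under 0.05 by edgeR. Their sum was 6.91 and 8.94 CPM in HFD-WT and 13.8 and 5.15 CPM in HFD-KO livers, with Cd3e at 1.75 CPM and Cd8a at 1.79 CPM in replicate 1 of HFD-KO and both at 0.727 CPM or less in every other library. The cytotoxic genes Gzma (0.414 and 0.945 against 0.342 and 0.335 CPM) and Gzmb (0.552 and 0.982 against 0.532 and 0.377 CPM) were not high there.

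B and plasma cell genes had 4 of 9 higher at an unadjusted p under 0.05, and their sum was 20.5 and 17.5 CPM in HFD-WT and 128 and 25.5 CPM in HFD-KO livers. Most of the 128 CPM came from Ighm, at 73.9 CPM in replicate 1 of HFD-KO and between 7.45 and 7.85 CPM in the other libraries. Replicate 1 of HFD-KO, in which Ccr2, Lyz2 and Cx3cr1 were near the HFD-WT level, was thus the library rich in lymphocyte genes, including Cd79a (2.93 CPM, at most 0.945 elsewhere), Jchain (8.21 CPM) and Igkc (32.7 CPM), while Derl3 was highest in replicate 2 at 7.33 CPM. The summed hepatocyte genes were highest in replicate 2, at 101450 CPM against at most 88677 CPM in the other libraries, with Alb at 66104 CPM there and between 52676 and 54900 CPM in the others. Apoa1 and Serpina1a were higher in both HFD-KO libraries (6265 and 6679 against 7330 and 7177 CPM, and 3216 and 3268 against 4002 and 4073 CPM), and Ass1 overlapped between the groups. Of 9 tested hepatocyte genes, 1 was higher at an unadjusted p under 0.05. The red blood cell genes, 3 of 5 of which were higher at an unadjusted p under 0.05, summed to 757 and 600 CPM in HFD-WT and 811 and 1146 CPM in HFD-KO livers, with Hbb-bs, Hba-a1 and Hba-a2 each highest in replicate 2. Hba-a1 and Hba-a2 are near copies, as are Serpina1a and its neighbours, so the split of reads among them is uncertain.

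The remaining lists bear on the sharing of markers. All 8 tested dendritic cell genes had a negative log2 fold change, 2 of them at an unadjusted p under 0.05. These were Clec9a (2.35 and 3.38 against 1.75 and 1.63 CPM) and Irf8 (10.05 and 11.7 against 8.24 and 8.75 CPM). Both HFD-KO libraries lay below both HFD-WT libraries for each of them, as for Itgax. Xcr1, which marks cross-presenting dendritic cells, had 3 to 13 reads per library and was not tested, and Flt3 had 0.898 and 1.16 against 0.836 and 0.502 CPM. Of 4 tested neutrophil genes, 0 passed an unadjusted p under 0.05 by edgeR, and the sum of the list was 9.12 and 10.1 CPM against 4.94 and 9.04 CPM. S100a8 had 1.07 and 1.16 CPM against 0.304 and 0.879 CPM, Csf3r 3.11 and 4.73 against 2.36 and 2.85 CPM, and Mmp9 0.725 and 0.618 against 0.494 and 0.419 CPM. Of 6 tested bile duct cell genes, which share Cd9 and Spp1 with macrophages, 0 passed an unadjusted p under 0.05. Their sum was between 20.9 and 23.4 CPM in every library, with Krt19, Epcam and Sox9 at log2 fold changes of 0.050, -0.18 and -0.11. Of 10 sinusoidal endothelial genes, 1 was lower at an unadjusted p under 0.05 (Lyve1, 19.8 and 26.8 against 14.02 and 14.5 CPM, adjusted p = 0.0302 by DESeq2's Wald test), and the list's sum was 370 and 402 CPM against 361 and 374 CPM. Stab2, Ptprb and Oit3 had log2 fold changes of -0.015, -0.14 and -0.11.

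Genes outside all lists that followed the mean profile of the 10 genes most closely were Epsti1, Slc39a4, Csf2rb2, Snn and Gm7592. Likeness was the root mean square difference of centred log2 CPM over the 4 libraries among 11759 genes with a mean of at least 1 CPM. It was between 0.0357 and 0.0436 for these genes, against 0.0862 for Mmp12, the closest of the 10, and 0.463 for Cd9, the furthest. Csf2rb2, a receptor subunit of myeloid cytokines, had 3.35 and 4.07 CPM in HFD-WT and 3.11 and 1.88 CPM in HFD-KO livers. Slc39a4, a zinc transporter, had 40.1 and 49.4 CPM against 35.6 and 25.0 CPM. With only 4 libraries, many genes share such a profile, and Mmp12 ranked 43 among all genes compared.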

How the data were processed

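Liver RNA of 2 HFD-WT and 2 HFD-KO mice or pools was sequenced by the authors as paired ends, trimmed with an MGI Tech tool, aligned to mm10 and quantified in Partek Genomics Suite with GENCODE annotation. Versions, strand use and the treatment of multi-mapping reads are not given in the sources used here, and gene positions in the table are GRCm39, which the submitters' processing notes name beside mm10. The authors deposited raw read counts, which were the only values tested. The deposited TPM values were used to compare levels between genes. The deposited RPKM values were not used, nor were the deposited CPM values, treated as a score.

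The counts were filtered by filterByExpr, normalized by TMM and tested with edgeR 4.0.16 (quasi-likelihood, two-sided, Benjamini-Hochberg over 12967 genes) in R 4.3.3. Standard errors are the log2 fold change over the root of the F statistic. DESeq2 1.42.0 was an alternative. In data simulated for HFD-KO against HFD-WT on 12864 genes, the test recovered 167 of 200 genes changed by a fold of 2. There were also 7 false calls. In the measured libraries, Adarb1 had a log2 fold change of -1.17 and did not pass (edgeR adjusted p = 0.159). The simulated recovery therefore does not show that such a change would be detected in the macrophage genes.

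The 10 members, the 15 other lists and the promoter motifs were chosen with earlier results of these data known. The genes named were the 10, Adarb1, the first tested gene and up to 3 genes with the smallest p of each list, and the 5 nearest in profile. Fabp5, Xcr1, Lyz1, Csf1r and Ighm were named after their values were seen. Some genes that this rule takes are not reported here. Libraries were treated as unpaired, and the alternatives changed scaling, filter, test, block and libraries. Plots used matplotlib 3.10.9 in Python 3.11.15.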

Additional observations from a re-analysis of the deposited data

How the results depend on the processing

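The 10 macrophage genes kept their direction and their side of an adjusted p of 0.05 in 98 of 110 alternative values. The adjusted p was that of edgeR, except in the DESeq2 alternative, where it was that of the Wald test. A direction turned for Cd9 without replicate 1 of HFD-KO (log2 fold change 0.024, and -0.59 without replicate 2) and for Ccr2 without replicate 2 of HFD-KO (0.031, and -0.84 without replicate 1). The other 10 passed the threshold, 1 with no filter on low counts and 9 with a library left out. The count of the 10 that were lower at an adjusted p under 0.05 was 0, 1 with no filter, and from 0 to 8 with a library left out, the latter without replicate 1 of HFD-KO. At an unadjusted p under 0.05 it was 4. This count fell without replicate 2 of HFD-WT and rose without replicate 1 of HFD-KO. For the fit without replicate 1 of HFD-KO, the share of all genes at an unadjusted p under 0.05 was not counted. Over all genes, 7 were higher and 3 lower at an adjusted p under 0.05. These counts were 4 higher with the library size alone, with upper-quartile factors or with a mean of at least 1 CPM, 81 higher and 81 lower with no filter, 55 and 60 by the Wald test of DESeq2, and from 0 to 376 higher and 0 to 329 lower with a library left out. The cause was not tested. In the other lists, 32 genes were lower and 11 higher at an unadjusted p under 0.05, from 13 to 43 lower and 2 to 24 higher with a library left out, and 4 higher with DESeq2's Wald test. The summed level of the 10 genes in HFD-KO was 0.739 of that in HFD-WT, 0.716 with the plain library size and 0.733 in TPM.

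The replicate numbers are shared by the groups, but nothing describes a pairing, and the difference of replicate 1 and 2 correlated between the groups at r = -0.090 over 11765 genes. With the replicate number as a block, 12 genes were higher and 8 lower, and 0 of the 10 macrophage genes passed an adjusted p of 0.05 by edgeR. Among other named genes, a direction turned when a library was left out, with log2 fold changes from -0.15 to 0.071 for Ccl2, -1.02 to 1.75 for Cd3e, -0.51 to 1.89 for Cd8a, -0.069 to 0.18 for Krt19, -0.47 to 0.046 for Epcam, -0.56 to 0.25 for Sox9, -0.19 to 0.14 for Stab2, -0.045 to 0.28 for Alb and -0.37 to 0.013 for Ass1. Of 53 genes named from the other lists, 0 passed an adjusted p of 0.05 by edgeR or with the block, 9 by the Wald test of DESeq2 and 10 with no filter, while Adarb1 passed with the block (adjusted p = 0.040 by edgeR). Depth limited Ccr2, Cx3cr1 and Trem2 most, with 46, 41 and 40 reads in the library where each was lowest.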
